A study of Aspergillus nidulans with 6 samples.

Results

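Of 10957 *Aspergillus nidulans* genes listed, 59 had a value of at least 1 in all 3 control libraries and were listed at 0 in all 3 salt libraries. These 59 genes are described here as genes listed at 0 with salt stress. They were chosen on the control and salt values themselves, so their fall is a description and was not tested. The values are normalized RPM, which means reads per 1000000 reads counted on genes, scaled by TMM (a trimmed mean of log ratios) within the 2 libraries of a strain. They are not divided by gene length, so an order of genes by value is an order in reads and not in transcripts. A value below 1 is listed as 0 in these libraries, and the limit of 1 corresponded to 38 to 55 reads. A gene listed at 0 may therefore still have been transcribed at a low level.

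The 6 libraries came from the parent TN02A7, the Δ*cnaB* strain WSA08 and the Δ*cnaB*Δ*cchA* strain LXA05, each grown for 18 h in liquid minimal medium with glucose and nitrate. Salt stress was 30 min in the same medium with 800 mM NaCl, and the control cultures were kept for that time without it. Sets of 3 values are given in the order parent, Δ*cnaB*, Δ*cnaB*Δ*cchA*. The labelled genotypes were *pyrG89; riboB2; pyroA4; nkuA::argB2; veA1* for the parent, the same with *cnaB* replaced by *pyrG* for Δ*cnaB*, and *pyrG89; nkuA::argB2; veA1* with both *cnaB* and *cchA* replaced by *pyrG* for Δ*cnaB*Δ*cchA*, whose label names neither *riboB2* nor *pyroA4*. All strains thus carried *pyrG89*, *nkuA::argB2* and *veA1*, and the parent, unlike the deletion strains, carried no *pyrG* replacement, so a level that separates it from them cannot be tied to *cnaB* alone. Strain and treatment were combined in 1 library each, so differences within a strain have no replicates behind them.

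Salt stress combines a loss of water with an excess of sodium ions. Filamentous fungi respond through the Hog1-type kinase SakA, which promotes the accumulation of compatible solutes such as glycerol, and through calcium signalling, in which the phosphatase calcineurin acts with its regulatory subunit CnaB. CchA is a calcium channel of the plasma membrane. Genes for the use of particular nutrients and for secondary metabolites often lie next to each other in *Aspergillus* genomes and are frequently regulated together.

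Between 41369564 and 50006318 reads per library were recovered from the values. The deleted genes followed the labels. The *cnaB* value was 86.2 in the parent control, 73.6 in the parent with salt and 0 in the 4 libraries of the deletion strains. The *cchA* value was between 74.1 and 136 in the parent and Δ*cnaB* libraries, and 3.56 and 3.96 in the Δ*cnaB*Δ*cchA* libraries. Conidia are labelled as the source, although the cultures had grown for 18 h, and of 8 conidiation genes listed as markers 7 were found. The spore wall gene *dewA* was listed at 0 in all 6 libraries, and *brlA*, the master regulator of conidiation, had 1.69, 0 and 0 without salt and 4.68, 1.11 and 0 with it. Other markers were present. The spore pigment gene *yA* had 13.2, 12.5 and 14.3 in the controls and 232, 227 and 236 with salt, and the spore wall gene *rodA* had 14.7, 0 and 0 and then 1.51, 2.30 and 1.36. Of 6 markers tested 2 were higher with salt (*yA* and *vosA*) and 1 lower (*wetA*), beside 28.7% higher and 26.6% lower of all 8673 genes tested. None of the marker genes was among the 59. Of 9 osmotic response genes 5 were found and tested. Of these, 3 (*sakA*, *atfA* and *gldB*) were higher with salt and 0 lower, beside the same shares of all genes. Of 6 calcium signalling genes 4 were found and 3 tested, and 0 were called. The tested genes included *cchA*, which is deleted in Δ*cnaB*Δ*cchA*. No gene of either list was among the 59.

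The 59 genes were weakly represented already without salt. Their mean control value ranged from 1.11 for *AN2643* to 7.91 for *AN2726*, with a median of 2.19. The median over all 8125 genes of at least 1 in the 3 controls was 32.8. The mean was below 2 for 25 of the 59, from 2 to 4 for 27 and 4 or more for 7. Their summed control values were 157, 133 and 160 normalized RPM, or 0.0169%, 0.0148% and 0.0173% of the sum of each library.

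**Figure D1:**
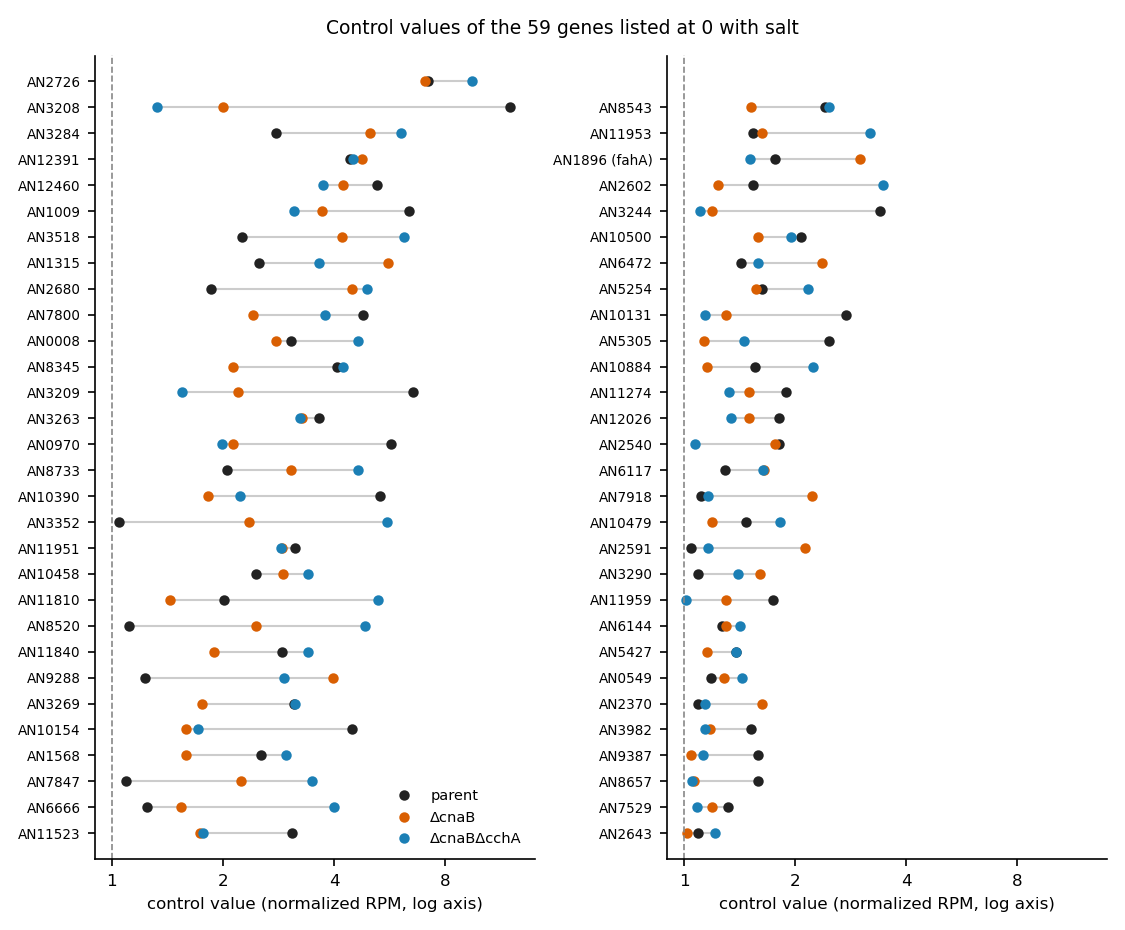
Control values in normalized RPM (log axis) of the 59 genes listed at 0 with salt, ordered by their mean. Each gene has 1 point per strain (black, parent; orange, ΔcnaB; blue, ΔcnaBΔcchA), the grey line joins the lowest and the highest, and the dashed line is the limit of 1. *AN2726* lies highest by mean, *AN3208* spreads from 1.33 to 11.9, and the genes of the right panel lie mostly close to the limit.

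The gene with the highest mean, *AN2726*, had control values of 7.20, 7.06 and 9.47. It was the single gene of the 59 at 5 or more in every control. *AN12391* had 4.41, 4.76 and 4.50. These genes stood well clear of the limit in each strain, and their salt values below 1 put the fall at more than 4-fold in all 3 strains, which held for no other gene of the set.

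*AN12460* had control values of 5.24, 4.24 and 3.74. *AN1009* had 6.37, 3.71 and 3.11. *AN7800* had 4.79, 2.41 and 3.78. These genes had their highest value in the parent. *AN3284* had 2.79, 5.02 and 6.06, *AN3518* had 2.25, 4.19 and 6.17, *AN1315* had 2.50, 5.58 and 3.65, and *AN2680* had 1.85, 4.47 and 4.90. These genes were lowest in the parent, so the genes with the most reads did not share an order of the strains. The last of the 10 highest genes, *AN3208*, is described with its neighbours.

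Because salt values below 1 are not shown, the control value divided by 1 is the least fall that the listing allows. In the parent this least fall ranged from 1.05-fold to 11.9-fold (median 1.89). It ranged from 1.02-fold to 7.06-fold in Δ*cnaB* (median 1.76) and from 1.01-fold to 9.47-fold in the double deletion (median 2.17). It was at least 2-fold for 29, 25 and 30 genes in the 3 strains, and in all of them for 14, namely *AN0008*, *AN1009*, *AN10458*, *AN11951*, *AN12391*, *AN12460*, *AN1315*, *AN2726*, *AN3263*, *AN3284*, *AN3518*, *AN7800*, *AN8345* and *AN8733*. The exact Poisson 95% interval of the control reads lay above the limit in all 3 strains for 33 of the 59 genes. These intervals cover counting error only. They are also too narrow, since the recovered reads exceed the clean reads stated for the study, so 33 may be too high. For the other 26 genes at least 1 control value could not be told from the limit by its counting error.

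At the edge of the rule, the members with the smallest control values were *AN11959* (1.74, 1.30 and 1.01), *AN2643* (1.09, 1.02 and 1.22), *AN9387* (1.58, 1.04 and 1.12), *AN2591* (1.05, 2.13 and 1.16) and *AN3352* (1.05, 2.35 and 5.56). Just outside it, *AN11864* had control values of 5.35, 4.56 and 4.37 and was kept out by a salt value of 1.01 in Δ*cnaB*Δ*cchA*. *AN10836* (1.92, 2.02 and 2.80) and *AN1598* (1.87, 1.48 and 1.77) were kept out by 1.01 and 1.04 in that same salt library, and *AN0032* and *AN3487* by 1.02 in the parent salt library. On the control side, *AN3234* (0, 4.43 and 2.97), *AN12276* (0, 2.87 and 2.91), *AN8116* (0, 4.13 and 2.60) and *AN11785* (0, 1.80 and 2.10) were missing in the parent control alone, and *AN5355* (2.45, 0 and 2.36) in the Δ*cnaB* control alone. The boundary thus ran through genes with levels like those of the set.

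Salt listed 243 genes at 0 in the parent (2.89% of the 8395 genes with a value in its control), 284 in Δ*cnaB* (3.36% of 8462) and 279 in the double deletion (3.28% of 8498). The 59 shared genes were 24.3%, 20.8% and 21.1% of these. A further 74 genes with a value in all 3 controls had 1 listed salt value, 125 had 2 and 7867 had all 3. In the opposite direction, 167 genes were listed at 0 in all controls and had a value of at least 1 in all salt libraries. On this scale passage across the limit was thus not mainly downward. The values summed to more in each salt library than in the control of its strain, and the 167 genes were not recounted on library totals. With the rule applied to the deletion strains alone, 142 genes were found. Without Δ*cnaB* there were 90 and without Δ*cnaB*Δ*cchA* 93.

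The rule itself ties membership to the level without salt, since a gene near the limit needs only a small fall to be listed at 0. The shares are therefore given as a description. Of 199 genes with a mean control value of 1 to 2, 25 (12.6%) belonged to the set, compared with 27 of 491 (5.50%) from 2 to 4 and 7 of 722 (0.970%) from 4 to 8. Above 8 there was none among 1037 genes from 8 to 16 and 5676 genes of 16 or more. Many genes at these levels stayed listed with salt. Of the 1400 genes whose mean control value lay in the range of the set, 1162 were listed in all 3 salt libraries, and of the 199 genes from 1 to 2, 81 were higher with salt in all 3 strains.

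**Figure D2:**
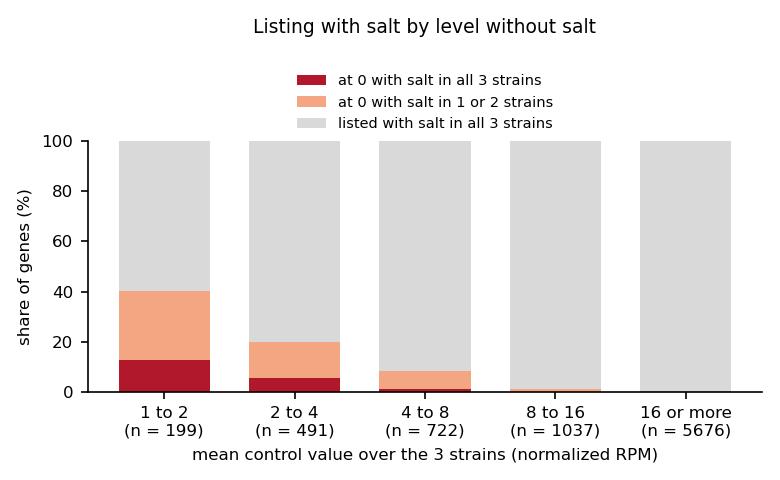
Share of genes (%) listed at 0 with salt in all 3 strains (dark red), in 1 or 2 strains (light red) or listed with salt in all 3 strains (grey), by mean control value in normalized RPM. Genes of at least 1 in the 3 controls are shown, with their number under each bar. The dark red share falls from 12.6% in the lowest class to 0.970% from 4 to 8 and is 0 above 8.

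The strains differed in the control level of single genes of the set. This is given as a description, since the libraries of the strains were normalized in separate pairs and each strain had 1 control. Of the 59 genes, 36 lay within 2-fold over the 3 controls. So did 5614 of the 8125 genes of at least 1 in the 3 controls, and 878 of the 1400 in the same range of levels. The parent was at least 2-fold above both deletion strains for 7 genes (11.9%), beside 9.7% of the 8125 genes of at least 1 in the 3 controls. It was at least 2-fold below both for 5 genes (8.47%), beside 7.58%. These shares were close to the background, and the same 7 and 5 were counted after scaling libraries to their own totals.

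The 7 genes higher in the parent were *AN3208*, *AN3209*, *AN3244*, *AN0970*, *AN10154*, *AN10390* and *AN10131*. *AN3244* had 3.39 in the parent and 1.19 and 1.11 in the deletion strains. *AN0970* had 5.71, 2.13 and 1.99, and *AN10154* had 4.46, 1.59 and 1.71. In each of these the values of the deletion strains lay close together and the parent stood apart. The 5 genes higher in the deletion strains were *AN3352*, *AN8520*, *AN9288*, *AN7847* and *AN2680*. *AN3352* had 1.05, 2.35 and 5.56, *AN8520* had 1.11, 2.45 and 4.85, and *AN7847* had 1.09, 2.24 and 3.48. *AN9288* had 1.23, 3.98 and 2.93. *AN3352*, *AN8520* and *AN7847* were highest in the double deletion, whereas *AN9288* was highest in Δ*cnaB*. Across the 59 genes, the control values of the deletion strains ranked more alike (Spearman's rho 0.65) than those of the parent and Δ*cnaB* (0.36) or of the parent and Δ*cnaB*Δ*cchA* (0.28). The 1400 genes of the same range of levels gave 0.82, 0.44 and 0.39. These correlations are across genes, which are not independent replicates.

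Gene order and symbols came from a RefSeq table (assembly ASM1142v1, not the assembly that the authors mapped to). It held 51 of the 59 genes. The 8 that it did not hold were *AN12391*, *AN12460*, *AN11951*, *AN11810*, *AN11840*, *AN11953*, *AN12026* and *AN11959*. They were 13.6% of the set, compared with 8.40% of all genes listed and 5.14% of the genes of at least 1 in the 3 controls. One gene of the set had a symbol, *fahA* (*AN1896*), and 780 genes of the table had one. None of the 51 overlapped another annotated gene.

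The rule did not use the values of the neighbouring genes, which were therefore tested. The 51 genes had 92 different neighbours, taking the nearest annotated gene on either side and leaving out members of the set. Of these, 49 had a value of at least 1 in 3 or more libraries and entered the test over the 3 strains (limma on log2(value + 0.1), strain as a block, 8673 genes, Benjamini-Hochberg adjusted *P* below 0.05). Of the 43 others, 38 were listed at 0 in all 6 libraries. Set against the 92 neighbours, this stands beside 1871 of all 10957 genes listed. With salt 26 of the 49 (53.1%) were lower, beside 26.6% of all genes tested, and 3 (6.12%) were higher, beside 28.7%. All 26 were lower in each of the 3 strains, 20 of them by more than 1 on the log2 scale. The median log2 fold change was -0.95 for the neighbours and -0.02 for all genes tested.

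The median of the neighbours' mean control values was 10.3, beside 29.7 for all genes tested. Of the 25 neighbours at or under that level 8 (32%) were lower and 3 (12%) higher, beside 13.8% and 32.8% of the 2255 genes tested at or under it, a comparison added after the data were seen. Genes at 0 in all controls pass the filter through their salt values alone and can then only be higher. They numbered 167 among the 2255 genes and included the neighbour *AN2541*. The 59 genes of the set pass it through their control values alone and can only be lower. They were kept among the 2255 genes and among all genes tested, while the neighbours leave them out. How far either group shapes the shares called was not tested. Of the 24 neighbours above that level 18 (75%) were lower and 0 higher, beside 26.6% and 28.7% of all genes tested. The shares among all genes above that level were not counted. Scaling libraries to their own totals shifted the median of all genes to -0.28, and then 32 neighbours (65.3%) were lower beside 35.5% of all genes, and 3 higher beside 22.3%. The count fell when a deletion strain was left out and not when the parent was. Without Δ*cnaB* 14 of 50 (28.0%) were called lower beside 14.2% of all genes, without Δ*cnaB*Δ*cchA* 15 of 50 (30.0%) beside 12.6%, and without the parent 30 of 49 (61.2%) beside 30.6%. Without the strain block there were 15 (30.6%) beside 14.5%. In each of these settings the share of neighbours called lower exceeded that of all genes.

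**Figure D3:**
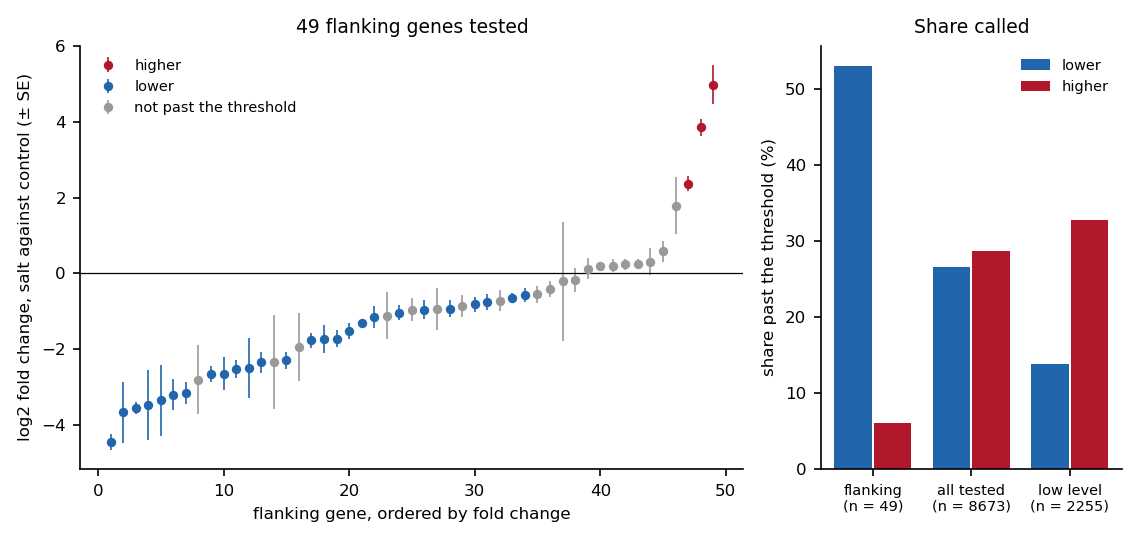
Left, log2 fold change, salt against control, with its standard error for the 49 tested neighbours of the genes listed at 0 with salt (blue, lower; red, higher; grey, not past the threshold of limma). Right, share (%) called lower and higher among these neighbours, among all 8673 genes tested and among the 2255 genes tested at or under the neighbours' median control level, where 25 of the neighbours lie. The neighbours have 53.1% lower and 6.12% higher, against 26.6% and 28.7% of all genes.

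With a constant of 0.1 the largest fall among the neighbours was that of *crnA* (*AN1008*), which lies next to *AN1009* and encodes a nitrate transporter of the nitrate assimilation cluster. With 0.01 the falls of *AN3519*, *hmgA* and *AN3285*, which have salt values listed at 0, were larger (-5.85, -5.54 and -4.61, beside -4.45). The *crnA* values were 544, 466 and 536 in the controls and 27.5, 14.7 and 32.1 with salt. Its log2 fold change was -4.45 ± 0.21 (SE, adjusted *P* = 0.00086, limma), with no overlap between control and salt values. Further along, *niiA*, which encodes nitrite reductase, had 4598, 5911 and 7654 without salt and 678, 829 and 1475 with it (-2.66 ± 0.14, adjusted *P* = 0.00088). The nitrate reductase gene *niaD* had 1267, 1588 and 1751 and then 139, 92.1 and 234 (-3.40 ± 0.26, adjusted *P* = 0.0014). These enzymes reduce nitrate, the nitrogen source of the medium, to ammonium. They were looked up after *crnA* had been seen. The gene on the other side of *AN1009*, *AN1010*, had 56.2, 28.8 and 26.9 without salt and 53.3, 36.6 and 36.7 with it (0.24 ± 0.16, adjusted *P* = 0.26, limma). It was not called, and its values were higher with salt in both deletion strains. A fall like that at the nitrate genes and at *AN1009* was not seen there.

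*AN3674*, next to *AN10458*, had values of 1037, 394 and 524 without salt and 107, 27.1 and 45.4 with it (-3.55 ± 0.15, adjusted *P* = 0.00084, limma). *AN10458* itself had 2.45, 2.91 and 3.41 in the controls. Both neighbours of *AN10458* were lower, as were both neighbours of *AN11523*, *AN2591*, *AN6117* and *AN8345*, among 16 genes with both neighbours tested. Among the 33 genes with at least 1 neighbour tested, 16 had 1 neighbour lower. The same was not counted around genes outside the set. *AN2727*, beside *AN2726*, was named after its values were seen, and had 36.9, 36.5 and 41.8 in the controls and 4.95, 1.77 and 7.72 with salt (-3.20 ± 0.40, adjusted *P* = 0.0040). The neighbour on the other side, *AN2725*, had 7.38, 3.997 and 5.36 and then 8.08, 8.91 and 7.52 (0.58 ± 0.27, adjusted *P* = 0.13) and did not pass the threshold.

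*AN3519*, next to *AN3518*, had 1.605, 3.74 and 6.67 and then 0, 0 and 2.08 with salt (-3.66 ± 0.81, adjusted *P* = 0.019). Where salt values are listed at 0, the size of the fold change follows the constant added, and for *AN3519* it was -1.65 with a constant of 1 and -5.85 with 0.01. Its call was lost without Δ*cnaB* and without the strain block.

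The 3 neighbours that rose were *AN2541*, *AN7799* and *AN9289*. *AN7799*, next to *AN7800*, had values of 4.55, 7.67 and 9.86 in the controls and 83.1, 132 and 99.9 with salt (3.86 ± 0.22, adjusted *P* = 0.00089, limma). *AN9289*, next to *AN9288*, rose from 4.17, 2.93 and 2.23 to 25.2, 14.9 and 10.8 (2.36 ± 0.20, adjusted *P* = 0.0016). *AN2541*, next to *AN2540*, was listed at 0 in the controls and had 4.31, 2.49 and 2.70 with salt. It passed the filter through its salt values alone, which fixed the direction of its call. Here neighbours crossed in opposite directions, since *AN2540* had 1.81, 1.76 and 1.07 without salt and 0 with it.

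The genes of the set were not spread evenly along the annotation. A stretch of 92 annotated genes from *AN3290* to *AN3208*, 0.875% of the 10516 genes of the table, held 8 of them (13.6%), namely *AN3290*, *AN10390*, *AN3284*, *AN3269*, *AN3263*, *AN3244*, *AN3209* and *AN3208*. No other window of 92 genes clear of this stretch held more than 3. The stretch was picked after the gene order had been seen, and its density was not tested. Of its 80 other genes with values 43 were tested, and 20 (46.5%) were lower, beside 26.6% of all genes tested, and 4 (9.30%) higher, beside 28.7%. A further 27 of the 80 were listed at 0 in all 6 libraries, beside 1871 of all 10957 genes listed.

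**Figure D4:**
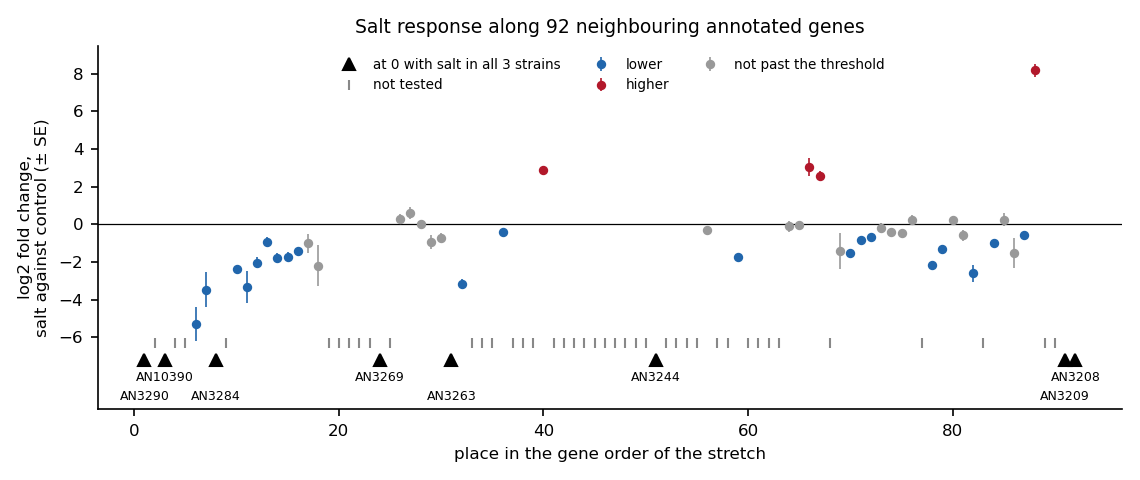
Log2 fold change, salt against control, with its standard error for the tested genes of the stretch from *AN3290* (place 1) to *AN3208* (place 92), by place in the gene order. Blue points were lower, red points higher and grey points not past the threshold of limma; triangles mark the 8 genes listed at 0 with salt, and ticks mark genes not tested or absent from the files. A run of blue points follows *AN3284*, and the highest red point is *AN3210*, 3 places before *AN3209*.

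At the start of the stretch, *AN3290* and *AN10390* had 1 gene between them, *AN10403*, which was listed at 0 in all libraries. *AN3290* had control values of 1.09, 1.61 and 1.40, and *AN10390* had 5.33, 1.82 and 2.23. *AN3284* followed after 4 genes. Around *AN3284* lay a run of genes that fell. *AN3286* had 24.5, 10.9 and 8.33 in the controls and 3.75, 0 and 0 with salt (-5.29 ± 0.91, adjusted *P* = 0.0092, limma), and *AN3285* had 12.7, 7.02 and 7.55 and then 3.06, 0 and 1.51 (-3.47 ± 0.93, adjusted *P* = 0.032). On the other side *AN3283* was listed at 0 throughout, and *AN3282*, *AN3281*, *AN3280*, *AN3279*, *AN3278*, *AN3277* and *AN3276* were all lower, with log2 fold changes between -3.33 and -0.91. *AN3285* lost its call without Δ*cnaB*Δ*cchA*, without the strain block and with a constant of 0.01. Within the run the highest salt value of *AN3286* and *AN3285* was that of the parent, and *AN3281* had its single listed salt value, 1.78, in Δ*cnaB*Δ*cchA*.

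*AN3209* and *AN3208*, at the other end, were the only adjacent pair of the set. *AN3208* had control values of 11.9 in the parent and 2.00 and 1.33 in the deletion strains, and *AN3209* had 6.53, 2.19 and 1.55. The parent was 7.19-fold above the mean of the deletion strains for *AN3208* and 3.49-fold for *AN3209*, the largest such ratios of the set. The genes beyond *AN3208* also had their highest control value in the parent, except *AN3203*. This order was common, since the parent was highest for 4683 of the 8125 genes of at least 1 in the 3 controls. Of the 1400 genes in the range of levels of the set, it was highest for 653. *AN3207* had 4.41, 0 and 0 without salt and 1.07, 0 and 0 with it, and was not tested. *AN3206* had 265, 30.1 and 47.7 and then 96.8, 6.59 and 17.9 (-1.68 ± 0.20, adjusted *P* = 0.0037, limma). *AN3205* had 2.47, 0 and 0 and then 3.04, 0 and 0, and *AN3204* had 4.84, 3.04 and 1.23 and then 2.00, 0 and 0 (-3.32 ± 0.84, adjusted *P* = 0.027). The order parent above both deletion strains thus ran from *AN3209* to *AN3205* and held for *AN3204* also. On either side of this run a gene rose with salt in all strains. *AN3203* went from 11.8, 8.99 and 14.6 to 415, 360 and 353 (5.01 ± 0.18, adjusted *P* = 0.00084). *AN3210* was listed at 0 in the controls and had 26.1, 25.3 and 36.0 with salt, with *AN10386* and *AN10385* between it and *AN3209* at 0 in all salt libraries. *AN3210* passed the filter through its salt values alone, which fixed the direction of its call.

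*fahA* encodes fumarylacetoacetate hydrolase, the last enzyme of phenylalanine and tyrosine breakdown, which yields fumarate and acetoacetate. Its control values were 1.76, 2.998 and 1.51, highest in Δ*cnaB*. The genes for the steps before it lie beside it and were looked up after *fahA* had been found in the set. *hmgA* (*AN1897*), which encodes homogentisate dioxygenase, had 2.05, 1.74 and 3.004 in the controls and 1.07, 0 and 0 with salt (-3.35 ± 0.94, adjusted *P* = 0.037, limma). That call was lost without Δ*cnaB*, without Δ*cnaB*Δ*cchA* and with a constant of 0.01, and the log2 fold change was -1.34 with a constant of 1. *maiA* (*AN1895*), which encodes maleylacetoacetate isomerase, had 2.47, 1.89 and 1.25 and then 1.02, 0 and 1.01 (-1.93 ± 0.90, adjusted *P* = 0.13) and did not pass the threshold. All 3 genes were thus near the limit of listing without salt, and no salt value of theirs exceeded 1.07. *hmgX* (*AN1898*), next to *hmgA*, was listed at 0 in the controls and had 3.06, 6.08 and 3.49 with salt. It also passed the filter through its salt values alone, which fixed the direction of its call.

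**Figure D5:**
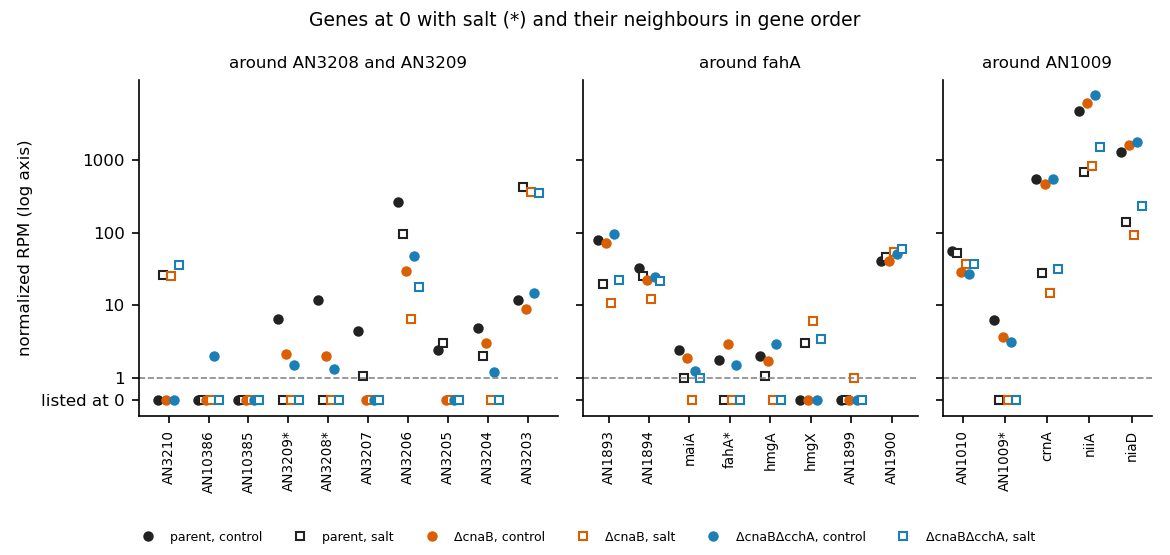
Values in normalized RPM (log axis) of 3 gene neighbourhoods in gene order. Filled circles are control and open squares salt libraries (black, parent; orange, ΔcnaB; blue, ΔcnaBΔcchA), genes of the set carry an asterisk, the dashed line is the limit of 1, and genes listed at 0 are drawn below it at a mark of their own. *AN3210* and *AN3203* rise on either side of *AN3209* and *AN3208*, *fahA* lies between *maiA* and *hmgA* near the limit, and *AN1009* lies beside *crnA*, which fell from 544, 466 and 536 to 27.5, 14.7 and 32.1.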

How the data were processed

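Per the labels and methods, the authors trimmed and filtered the reads, aligned them to assembly ASM14920v1 (TopHat), obtained gene counts with RSEM and applied TMM. The deposited values are a normalized signal (RPM scaled by TMM within the 2 libraries of a strain), although their heading calls them read counts. Missing values were taken as 0, which added no gene to the set. Every nonzero value was a whole multiple (tolerance 0.1) of the value of 1 read, which gave the reads of each library. These exceed the clean reads stated for the study, so counting intervals are too narrow. Columns of unmatched samples numbered 0.

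The genes and lists were chosen with earlier results of these data known. Salt was compared with control by limma (two-sided, strain as a block, eBayes with trend) on log2(value + 0.1) among genes of at least 1 in 3 or more libraries, and *P* was adjusted by Benjamini-Hochberg (threshold 0.05). The fit was tested on simulated data with the same normal noise for every gene and without listing values under 1 as 0. That test does not cover genes near the limit. Cultures were not stated to be replicated, and *P* values measure the spread between the strains' responses. Genes named were the 10 with the highest mean control value, those with a symbol, neighbouring members with the genes around them, the 5 highest and 5 lowest by ratio of deletion to parent level, those at the edge of the rule, and the neighbours with the largest changes or a symbol. Others are named as chosen after their values were seen. Alternatives were constants of 1 and 0.01, no filter, a filter of 5, library totals, no block, each strain left out, wider neighbourhoods and higher limits. Similarity of proteins, promoter features and tests on counts were planned and not run. R 4.3.3, limma 3.58.1, pandas 2.3.3, scipy 1.17.1 and matplotlib 3.10.9 were used.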

Additional observations from a re-analysis of the deposited data

How the results depend on the processing

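The 59 genes became 14 with a control limit of 2 and 1 with a limit of 5. Leaving out 1 strain gave between 90 and 142 genes, the highest number without the parent. With libraries scaled to their own totals and a common limit there were 86 genes, of which 55 belonged to the 59 and 31 were added. The neighbours lower with salt numbered 26, between 22 and 32 with the other constants, filters and library totals, 15 without the strain block and between 14 and 30 when 1 strain was left out. The number tested changed too. A constant of 1 gave 28 of 49 (57.1%) beside 27.7% of all genes, and 0.01 gave 22 of 49 (44.9%) beside 25.1%. A filter of 5 gave 22 of 33 (66.7%) beside 29.0%, and no filter 25 of 54 (46.3%) beside 25.0%. The neighbours higher with salt numbered 3. There were 4 (8.16%, beside 29.4% of all genes) with a constant of 1 and 2 (6.06%, beside 30.8%) with a filter of 5. Between 3 and 5 (6% to 10.2%, beside 18.5% to 32.1%) were higher when 1 strain was left out. With 2 neighbours on either side, 45 of 101 (44.6%) were lower and 9 (8.91%) higher, beside 26.6% and 28.7% of all genes tested. For the members of at least 2 in all controls, a choice made after the data were seen, 9 of 13 neighbours were lower and 1 higher. These were 69.2% and 7.69%, beside the same shares of all genes. Of 69 values of the 8 neighbours with the largest changes or a symbol under these alternatives, 61 kept their call, 8 lost it and 0 reversed. The 8 losses were those of *AN3519*, *AN3285* and *hmgA*, all with salt values listed at 0. The strain block sets each salt library against the control of its own strain, and the labels give no replicate numbers beyond it. Values under 1 are listed as 0, and this limit corresponded to 38 to 55 reads. Whether depth affected which genes crossed it was not tested. Tests on counts and on similar proteins gave no values because they were not run.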
